A study of Mus musculus with 6 samples.

Results

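The members are 89 named mouse pseudogenes in a table of 27179 entries, measured in nephron progenitors sorted from embryonic kidney. A pseudogene is a copy of a gene that has lost, or is annotated as having lost, the ability to make the parent's protein. The members were chosen by their symbol and by their measured level: of 204 entries whose symbol carries the suffix ps after the parent's name, those with a mean of at least 0.5 RPKM (reads scaled to gene length and library depth) over the 6 libraries were kept, and Slfn10-ps was set aside. Slfn10-ps had a mean of 0.199 RPKM, so setting it aside changed no count. A parent gene carrying the same name without the suffix was in the table for 76 members, which together had 61 different parents, and 13 members had none. Around the threshold of 0.5 RPKM, Alms1-ps2 (0.506), Polr2d-ps2 (0.522) and Tmem181c-ps (0.545 RPKM) lay just inside, and H2af-ps2 (0.404), Gemin6-ps (0.392) and Gmfg-ps (0.333 RPKM) lay just outside.

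The 3 mutant libraries came from Six2TGC;miR-17~92fl/fl embryos and the 3 control libraries from Six2TGC embryos, both at E16.5. Every embryo carried the Six2TGC transgene, which makes a GFP-Cre fusion in Six2-positive nephron progenitors, and the mutants were also homozygous for a floxed allele of miR-17~92, a microRNA cluster. Six2-positive cells were sorted by fluorescence, and each library pooled 4 embryos. Floxed alleles are not named for the controls, and no strain background is given, so the deletion and background carried with the floxed alleles cannot be told apart. The comparison addresses which transcripts differ in progenitors with the cluster removed.

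Most mouse pseudogenes with such names are processed pseudogenes, made when a messenger RNA is reverse transcribed and inserted elsewhere in the genome without introns. Genes that are strongly expressed in the germline, above all those for ribosomal proteins, have left many such copies. Others are unprocessed pseudogenes, made by duplication of a stretch of DNA with its introns, or unitary ones, where the gene itself decayed and no parent remains. Copies that differ from the parent by few bases share most short sequences with it, so a read can fit both, and how such reads were assigned is not given in the sources used here. Every level of a near-identical copy below is uncertain in that sense.

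The sequences of 3 sets of copies and parents show the bases that separate them over a short stretch. Members of each set were called between genotypes and could be aligned to the parent. Esd-ps, Rps13-ps4 and Bloc1s2-ps were also called and aligned and are not printed. Values for the whole copies are given below. In the stretches printed, capitals mark bases that differ from the parent, and all come from GENCODE vM21 transcripts on GRCm38. The first set is codons 21 to 50 of Rps15a, a protein of the small ribosomal subunit, in the parent (chr7:118114848-118115181, minus strand, across 2 exons) and in the 5 members copied from it, which did not move together. The copies lie at chr19:28742402-28742491 (Rps15a-ps2), chr4:132220288-132220377 (Rps15a-ps4), chr5:105797564-105797653 (Rps15a-ps5), chr11:6172887-6172976 (Rps15a-ps6) and chr4:53791307-53791396 (Rps15a-ps8), all on the minus strand. Among stretches of 90 bases this is one with the most differences that aligned without a gap in all 5 copies.
Rps15a-ps2: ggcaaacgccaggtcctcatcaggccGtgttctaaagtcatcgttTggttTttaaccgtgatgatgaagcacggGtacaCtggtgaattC
Rps15a-ps4: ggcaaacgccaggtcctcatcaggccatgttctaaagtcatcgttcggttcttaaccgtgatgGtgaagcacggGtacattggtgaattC
Rps15a-ps5: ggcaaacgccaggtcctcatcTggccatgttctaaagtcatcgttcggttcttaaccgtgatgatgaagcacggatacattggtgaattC
Rps15a-ps6: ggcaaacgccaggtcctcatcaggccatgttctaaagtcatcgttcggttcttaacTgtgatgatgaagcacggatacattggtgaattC
Rps15a-ps8: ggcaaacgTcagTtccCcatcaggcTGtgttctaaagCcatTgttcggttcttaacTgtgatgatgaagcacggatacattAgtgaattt
Rps15a: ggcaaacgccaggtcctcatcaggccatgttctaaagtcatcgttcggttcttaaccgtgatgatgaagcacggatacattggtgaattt

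Of the 90 positions, 16 differed in at least 1 copy. Rps15a-ps8 differed from the parent at 9 positions, Rps15a-ps2 at 6, Rps15a-ps4 at 3, and Rps15a-ps5 and Rps15a-ps6 at 2 each. The second set is codons 29 to 68 of Rpl15, a protein of the large ribosomal subunit, for a member that fell together with its parent: Rpl15-ps6 lies at chr15:52478025-52478144 and Rpl15 at chr14:18270012-18270366, both on the minus strand, and the 120 bases differ at 2 positions.
Rpl15-ps6: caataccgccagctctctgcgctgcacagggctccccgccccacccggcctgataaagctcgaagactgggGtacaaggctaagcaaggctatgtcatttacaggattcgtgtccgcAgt
Rpl15: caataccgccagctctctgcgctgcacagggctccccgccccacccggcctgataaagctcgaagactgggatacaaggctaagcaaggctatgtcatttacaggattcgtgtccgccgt

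The last set is codons 194 to 233 of Gpr137b, a lysosomal membrane protein, for the member with the largest rise. Gpr137b-ps is at chr13:12621451-12623931 and Gpr137b at chr13:13365139-13367651, both on the minus strand and both across 2 exons, and the 120 bases again differ at 2 positions.
Gpr137b-ps: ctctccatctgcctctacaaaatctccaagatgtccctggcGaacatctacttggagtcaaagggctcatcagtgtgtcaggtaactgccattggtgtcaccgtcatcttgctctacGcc
Gpr137b: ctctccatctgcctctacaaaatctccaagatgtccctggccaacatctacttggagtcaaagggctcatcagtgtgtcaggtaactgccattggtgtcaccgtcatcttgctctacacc

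Library depth, worked out from the values of short entries of known length, was between 27602025 and 30264067 reads in mutants and between 28117790 and 36134381 reads in controls. Recovered reads of all entries summed to between 99.7% and 99.8% of it, so it stands for reads counted to entries, not for all reads sequenced. Mir17, the first microRNA of the targeted cluster, had 2, 0 and 0 reads in the mutant libraries and 31, 26 and 16 reads in the control libraries. Mir17hg, the host transcript of the cluster, went the other way, with 259.1, 183.3 and 193.6 RPKM in mutants and 45.4, 33.6 and 52.9 RPKM in controls. Xist, transcribed from the inactive X chromosome of females, was at 60.1, 180.0 and 121.9 RPKM in mutants and 153.7, 0.034 and 0.028 RPKM in controls, so control replicates 2 and 3 stood apart. The 10 nephron progenitor markers were all detected and summed to between 530.8 and 649.6 RPKM in mutants and between 711.5 and 764.7 RPKM in controls, with Meox1 alone called, lower in mutants. The 9 macrophage and leukocyte markers summed to between 12.4 and 14.9 RPKM in mutants and between 5.10 and 8.02 RPKM in controls, and Fcer1g, Tyrobp and Ctss, 3 of the 5 tested, were higher. The interstitial sums overlapped, at 115.4 to 193.2 RPKM in mutants and 59.3 to 153.2 RPKM in controls. Of the markers listed, 8 of 8 were tested for interstitium, 2 of 5 for endothelium, 1 of 6 for ureteric bud and 3 of 5 for red cells. None of those tested was called, and the untested markers could not be called. Mitochondrial ribosomal RNA took 32.2% to 38.2% of reads in mutants and 27.0% to 30.4% in controls. The part that these cells, this RNA and the makeup of the control pools had in the results below was not tested.

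Level was part of the rule that chose the members, so what follows on it is a description: of the 204 entries with such names, 115 lay below the threshold, 45 of them with no read in any library. The members' mean level over the 6 libraries ran from 0.506 to 160.3 RPKM with a median of 9.11 RPKM. Above 100 RPKM there were 6 members, 43 reached 10 RPKM, 8 were under 1 RPKM, and all 89 had reads in every library. RefSeq annotates 44 as pseudogenes, 39 as transcribed pseudogenes, 5 as protein coding and 1 as a long noncoding RNA, spread over 20 chromosomes. Copies of ribosomal protein genes made up 24 of the 89.

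The highest was Rpl36-ps12, a copy of a large-subunit ribosomal protein gene, with 144.2, 145.0 and 152.6 RPKM in mutants and 170.9, 222.9 and 126.1 RPKM in controls. Rpl17-ps10, another ribosomal copy, had 131.4, 140.8 and 137.9 RPKM in mutants and 146.1, 167.5 and 149.0 RPKM in controls. Ptges3-ps, a copy of the gene for the Hsp90 co-chaperone p23, had 122.9, 133.9 and 119.9 RPKM in mutants and 125.7, 180.5 and 141.3 RPKM in controls. These levels are those of well-expressed genes, and control replicate 2 was the highest library for all 3.

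Oaz1-ps, copied from the gene for ornithine decarboxylase antizyme, which restrains polyamine synthesis, had 87.2, 99.7 and 117.1 RPKM in mutants and 119.9, 149.6 and 100.05 RPKM in controls. Rps15a-ps5 had 124.5, 97.5 and 83.9 RPKM in mutants and 101.6, 132.6 and 78.8 RPKM in controls. Anp32b-ps1, copied from the gene for a histone chaperone, had 99.96, 83.9 and 95.5 RPKM in mutants and 110.1, 121.7 and 98.6 RPKM in controls. None of these 6 was called between genotypes: their log2 fold changes lay between -0.27 for Oaz1-ps and -0.02 for Rps15a-ps5, with limma adjusted p of 0.343 to 0.964.

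The copies stayed close to their parents in sequence. Of 73 pairs that could be aligned to the coding sequence of the parent's principal transcript, 67 covered at least 90% of it, and among these the identity ran from 92.3% to 100% with a median of 98.9%. No base differed and no gap was needed in 5 of them, and 43 of the 67 held an open frame at least 95% as long as the parent's protein, while 11 held less than 50% of it. Sms-ps, a copy of the spermine synthase gene, matched all 1101 coding bases and kept all 366 codons open. Impdh2-ps, copied from the gene for an enzyme of guanine nucleotide synthesis, differed at 4 of 1545 bases and kept 514 codons. Oaz1-ps differed at 1 base and had a gap of 1 base, and its longest frame held 68 of 227 codons. An open frame is a property of the annotated sequence; no protein was measured.

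The members were next set beside their parents per length, again as a description, since copies with low levels had been removed by the rule. The pseudogene's mean RPKM exceeded the parent's in 39 of the 76 pairs, in all 6 libraries for 34 of them, and it was below the parent in all 6 libraries for 30 pairs. Ptges3-ps averaged 137.4 RPKM against 6.12 RPKM for Ptges3. Rps15a-ps5 averaged 103.2 RPKM against 11.8 RPKM for Rps15a, and Impdh2-ps 48.9 RPKM against 5.58 RPKM for Impdh2. Apoo-ps, copied from a gene for a mitochondrial inner membrane protein, averaged 43.5 RPKM against 2.36 RPKM for Apoo. Ndufs5-ps averaged 31.5 RPKM against 0.952 RPKM for Ndufs5, a respiratory complex I subunit. For Ndufs5-ps the smallest length that gave whole reads in every library, taken as its counted length, was only 100 bases, with between 79 and 140 reads a library. Comparisons with the parent, here and below, depend on the counted length of each entry. Rps15a-ps5 had 7387 reads over the 6 libraries, fewer than the 10983 of Rps15a, so it was higher per length only. The other copies named here had more reads than their parents.

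**Figure D1:**
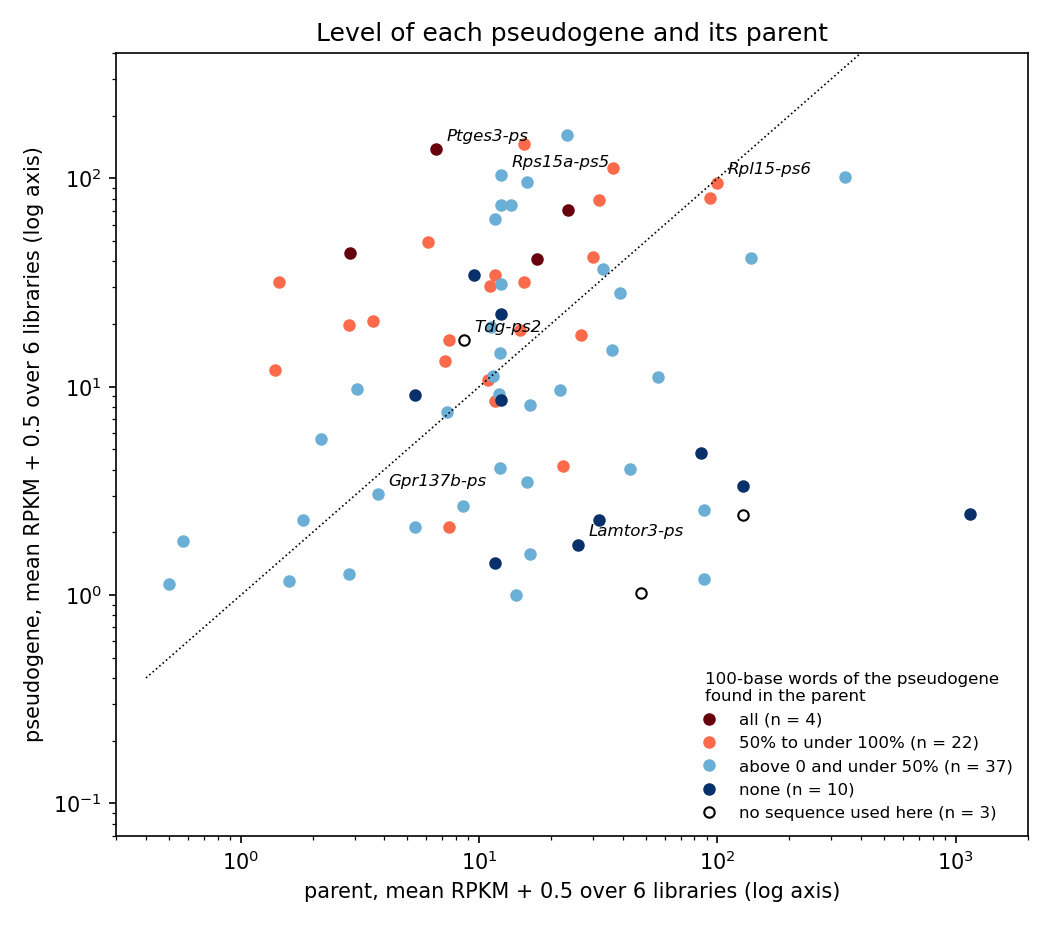
Mean level of each of the 76 pseudogenes (vertical) and its parent (horizontal) over the 6 libraries, as RPKM + 0.5 on log axes. The dotted line marks equal levels. Colour gives the share of 100-base words of the pseudogene's annotated transcript, which can be shorter than the counted entry, found in the parent. Pairs with all words in the parent lie above the line, and pairs with none lie on both sides, 7 of the 10 below it.

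The level relative to the parent was also set beside the sequence they share, with the same restriction to copies that passed the threshold. Words of 100 bases, the length of a read, were taken from the pseudogene's GENCODE transcript and looked up in the parent's transcripts. Bases counted outside that transcript were not examined. In the 4 pairs where every word of the pseudogene's transcript was in the parent (Ptges3-ps, Sms-ps, Apoo-ps and Pdcd5-ps) the pseudogene was higher in 4, with a median log2 ratio of 2.76. Their transcripts had 480, 1101, 586 and 381 bases, against counted lengths of 483, 1615, 605 and 516 bases. It was higher in 15 of the 22 pairs that shared 50% to under 100% of words (median 1.11), in 16 of the 37 that shared some but less than 50% (median -0.40) and in 3 of the 10 that shared none (median -3.41). These are descriptions over genes that share libraries and, in several families, a parent. Whether reads moved between copies was not tested.

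Between genotypes, 13 of the 89 pseudogenes were called at a limma adjusted p under 0.05, 5 higher and 8 lower in mutants. Over all 13463 tested entries 3.13% were called, 1.32% higher and 1.81% lower. The rule that chose the members used the mean over all libraries, not the genotype difference. Near the threshold, though, a member could pass through its control level alone. This held for Alms1-ps2 (mutant mean 0.325, control mean 0.687 RPKM), Gpx2-ps1 (0.370 and 0.900), Sycp1-ps1 (0.372 and 0.967) and Tmem181c-ps (0.423 and 0.666 RPKM). None of them was called, but all are among the 28 members without overlap counted below, as lower in mutants. Of the 24 copies of ribosomal protein genes 6 were called, and of the 65 others 7. By comparison, 9 of 258 other tested entries annotated as pseudogenes were called, 3 higher and 6 lower, and 3 of the 59 tested parents, 2 higher and 1 lower. The levels of the groups did not overlap for 28 of the 89 members, or 31.5%, against 25.1% of all tested entries. Between genotypes the median log2 fold change was -0.18 over the members and -0.12 over all tested entries, and taking mitochondrial ribosomal RNA out of the depth moved these medians to -0.08 and -0.01. With that depth 5 members were called higher and 4 lower, as Rps15a-ps8, Bloc1s2-ps, Lamtor3-ps and Rps13-ps4 lost their calls, and over all entries 268 were higher and 149 lower, against 178 and 244. The count of called members was 2 with no filter on low values (Gpr137b-ps and Tdg-ps2), 6 without mutant replicate 1 and 4 without mutant replicate 2 or 3. It was 6 without control replicate 1 and 21 without control replicate 3. Under these settings, in the same order with mutant replicates 2 and 3 apart, 143, 202, 148, 243, 210 and 1083 of all entries were called. The main test called 422. In bulk RNA, fewer cells of a type and less RNA per cell cannot be told apart.

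**Figure D2:**
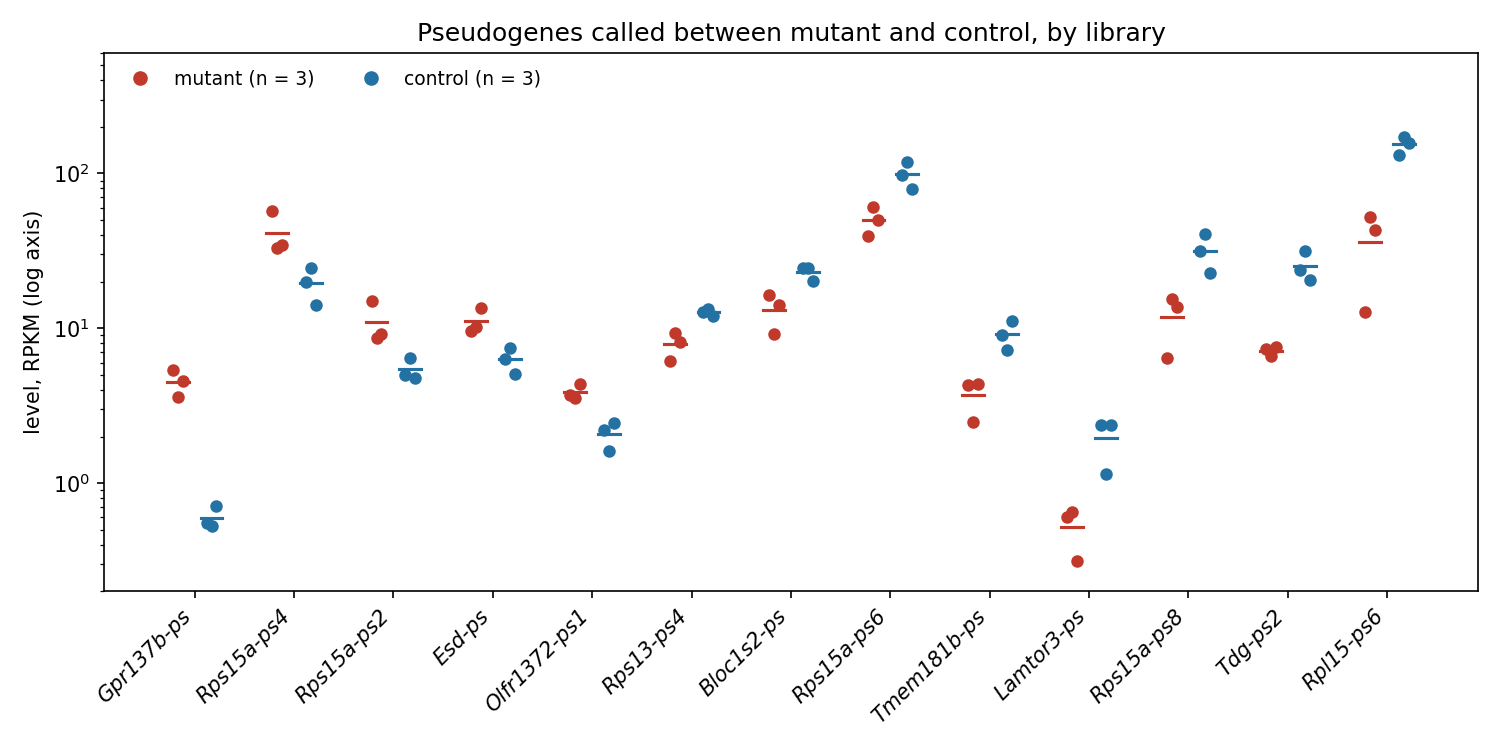
Level of the 13 called pseudogenes in each library, in RPKM on a log axis, with mutants (red) left of controls (blue) and a bar at the mean of each group, ordered by fold change. The groups do not overlap for any of the 13; Gpr137b-ps stands highest and Rpl15-ps6 lowest in mutants relative to controls.

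Tdg-ps2 and its parent moved in opposite directions. Tdg is the thymine DNA glycosylase of base excision repair, which also takes part in removing DNA methylation, and Tdg-ps2 lies on the same chromosome, 10, from 42052558 to 42055453 (GRCm38), far from Tdg at 82629814 to 82650799. Tdg-ps2 had 7.35, 6.60 and 7.57 RPKM in mutants and 23.7, 31.6 and 20.6 RPKM in controls. Every mutant library was below every control library, and the log2 fold change was -1.73 ± 0.16 (SE; limma adjusted p 0.000126). Tdg itself had 15.9, 12.0 and 14.6 RPKM in mutants and 1.96, 1.73 and 2.73 RPKM in controls, also without overlap, and rose by 2.48 ± 0.18 on the log2 scale (SE; limma adjusted p 2.83e-05). Both calls held under all 17 alternatives.

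The reads of the Tdg entries, added together, differed less. Tdg-ps2 had 1780 reads over the 3 mutant libraries and 7011 over the 3 control libraries, and Tdg 3924 and 634. With Tdg-ps, a further copy below the threshold, the sum came to 73.0, 58.2 and 69.1 RPM (reads scaled to library depth but not to gene length) in mutants and 75.04, 97.4 and 68.7 RPM in controls, and the groups overlapped. No transcript of Tdg-ps2 was matched in the annotation used, so the sequence it shares with Tdg was not measured.

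Rpl15-ps6 and its parent both fell. Rpl15-ps6 had 12.7, 52.3 and 43.4 RPKM in mutants and 132.6, 171.6 and 157.6 RPKM in controls. Mutant replicate 1 was the lowest of all, and the groups were well apart, with a log2 fold change of -2.30 ± 0.39 (SE; limma adjusted p 0.00766). Its size depended on mutant replicate 1: without that library it was -1.68 (limma adjusted p 0.000965), beside -1.75 for Tdg-ps2. Rpl15 had 50.9, 67.2 and 52.7 RPKM in mutants and 140.5, 154.3 and 127.8 RPKM in controls, a log2 fold change of -1.31 ± 0.14 (SE; limma adjusted p 0.000526). Rpl15 lies on chromosome 14, which also carries the targeted cluster, and Rpl15-ps6 on chromosome 15. The copy differs from the parent at 2 of 612 aligned coding bases, and 71.5% of its 100-base words are in Rpl15 transcripts. For Rpl15-ps6 the call was lost when low entries were kept in the test and when the variance moderation was made robust (limma adjusted p 0.102 and 0.126), while that for Rpl15 held under all 17 alternatives. Added together, the pair had 102.9, 161.6 and 128.6 RPM in mutants and 354.9, 408.7 and 349.7 RPM in controls, without overlap.

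The Rps15a copies split, with Rps15a-ps4 and Rps15a-ps2 higher in mutants and Rps15a-ps6 and Rps15a-ps8 lower. Rps15a-ps4 had 57.1, 33.0 and 34.6 RPKM in mutants and 19.9, 24.4 and 14.1 RPKM in controls. Rps15a-ps2 had 14.96, 8.64 and 9.13 RPKM in mutants and 4.99, 6.46 and 4.81 RPKM in controls. For both, all mutants lay above all controls and mutant replicate 1 was the highest library; the log2 fold changes were 1.06 ± 0.23 and 0.92 ± 0.20 (SE; limma adjusted p 0.029 and 0.0345).

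Rps15a-ps6 had 39.7, 60.3 and 50.1 RPKM in mutants and 98.0, 118.7 and 79.5 RPKM in controls. Rps15a-ps8 had 6.47, 15.5 and 13.7 RPKM in mutants and 31.7, 40.7 and 22.8 RPKM in controls. Here all mutants lay below all controls and mutant replicate 1 was the lowest library, with log2 fold changes of -0.98 ± 0.18 and -1.43 ± 0.28 (SE; limma adjusted p 0.0134 and 0.0199). Rps15a-ps5 and the parent did not pass the test: the parent had 13.2, 11.1 and 11.1 RPKM in mutants and 11.7, 13.2 and 10.6 RPKM in controls, a log2 fold change of -0.01 ± 0.14 (SE; limma adjusted p 0.986). The sign for Rps15a-ps5, at -0.02 in the main test, turned under 6 of 17 alternatives, to at most 0.17 with quantile normalization, and the signs of the 4 called copies turned under none of them.

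**Figure D3:**
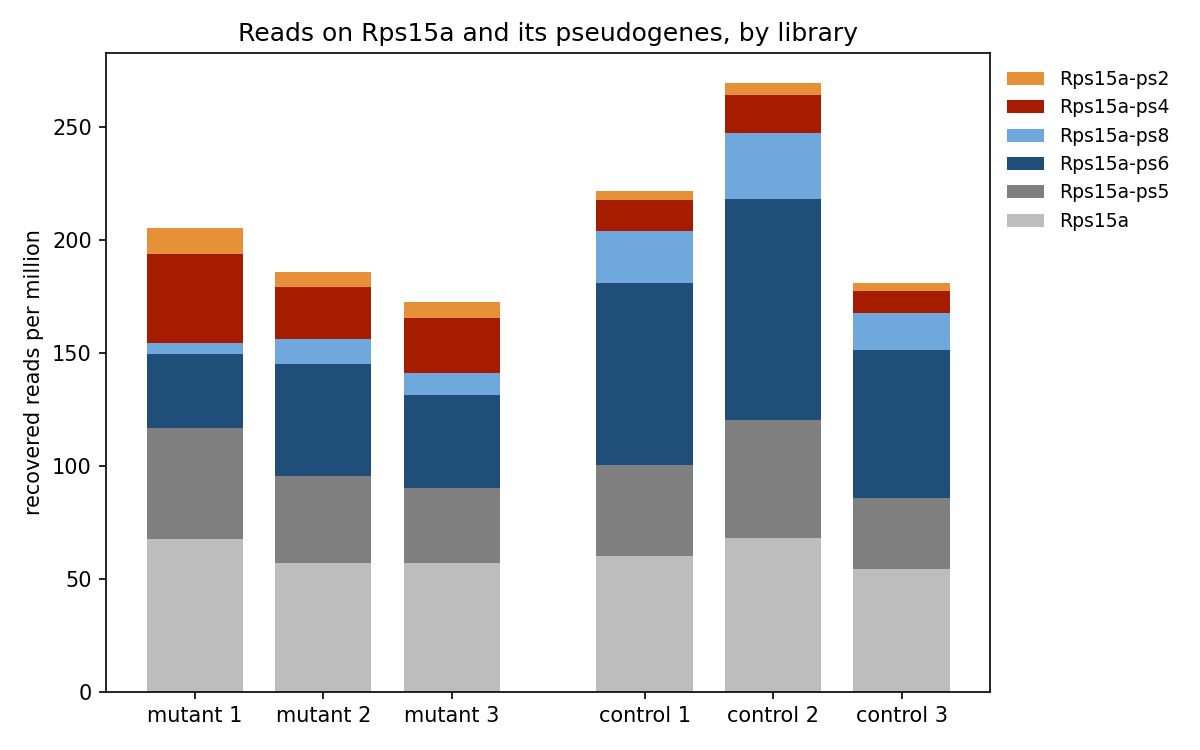
Level in RPM (vertical) of Rps15a and its 5 pseudogene members in each library, mutants on the left and controls on the right, stacked by entry. The red and orange parts (Rps15a-ps4 and Rps15a-ps2) are thicker in mutants and the blue parts (Rps15a-ps6 and Rps15a-ps8) thinner, while the total overlaps between groups.

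Added over the parent and all 6 copies in the table, the family had 205.3, 185.8 and 172.3 RPM in mutants and 221.4, 269.2 and 181.0 RPM in controls, so the totals overlapped. Rps15a-ps6 had 3510 reads over the mutant libraries and 7756 over the controls, and Rps15a-ps4 had 2508 and 1300. The identity to the Rps15a coding sequence was 98.7% for Rps15a-ps5 and Rps15a-ps6, 97.5% for Rps15a-ps4, 95.4% for Rps15a-ps2 and 92.3% for Rps15a-ps8, so the copies that rose were neither the closest nor the most distant. Of the 100-base words, 16.0% of Rps15a-ps6, 13.6% of Rps15a-ps5 and 10.2% of Rps15a-ps4 were in the parent. None of those of Rps15a-ps2 or Rps15a-ps8 was in the parent or in any other gene. The transcripts searched had 393 and 387 bases, against counted lengths of 762 and 720 bases, and the remainder was not examined. Of the 31-base words of these 2 transcripts, 40.8% and 35.0% were in another gene. Without mutant replicate 1, 2 or 3 or control replicate 1 the adjusted p passed 0.05 for Rps15a-ps4 (0.106, 0.0981, 0.0644 and 0.0506) and for Rps15a-ps2 (0.123, 0.0866, 0.0623 and 0.105). Rps15a-ps6 lost its call without mutant replicate 1 or 3 (0.0682 and 0.0623), and Rps15a-ps8 without mutant replicate 2 or 3 (0.0565 and 0.0507). Quantile normalization ended the calls of Rps15a-ps6 (0.0507) and Rps15a-ps8 (0.0606), robust variance moderation those of Rps15a-ps8 (0.115) and Rps15a-ps4 (0.0577), and a fit with no mean-variance trend those of Rps15a-ps4 and Rps15a-ps2 (0.0603 each).

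Gpr137b-ps rose further than any other member. It is an unprocessed, duplicated copy on chromosome 13, from 12614065 to 12650395 (GRCm38), and its parent lies on the same chromosome, from 13357620 to 13393644. Gpr137b-ps had 5.38, 3.61 and 4.53 RPKM in mutants and 0.554, 0.527 and 0.713 RPKM in controls, which is 479, 295 and 368 reads in mutants and 48, 56 and 59 reads in controls. The groups were far apart, with a log2 fold change of 2.18 ± 0.19 (SE; limma adjusted p 7.97e-05), and the call held under all 17 alternatives. Gpr137b had 2.38, 3.13 and 3.11 RPKM in mutants and 3.66, 3.27 and 3.94 RPKM in controls and was not called, with a log2 fold change of -0.29 ± 0.17 (SE; limma adjusted p 0.347). The sum of both entries still differed without overlap, at 22.9, 19.9 and 22.6 RPM in mutants and 12.6, 11.3 and 13.8 RPM in controls. The copy matched the parent's coding sequence at all but 5 of 1158 bases with a gap of 1 base, and its longest frame held 269 of 385 codons. Over its whole transcript, 17.1% of the copy's 100-base words and 36.5% of its 31-base words were in Gpr137b.

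Esd-ps and its parent rose together. Esd is esterase D, an enzyme of formaldehyde detoxification, and both entries lie on chromosome 14. Esd-ps had 9.59, 10.2 and 13.6 RPKM in mutants and 6.31, 7.45 and 5.10 RPKM in controls, a log2 fold change of 0.77 ± 0.18 (SE; limma adjusted p 0.0391). Esd had 16.46, 13.3 and 15.002 RPKM in mutants and 9.04, 9.17 and 7.06 RPKM in controls, a log2 fold change of 0.79 ± 0.15 (SE; limma adjusted p 0.0146). Neither set of libraries overlapped. Of the copy's 100-base words 4.01% were in Esd, and 60.6% were in any gene other than the copy itself, Esd included. Of its 31-base words 30.5% were in Esd and 78.5% in Gm5456, the closest annotated gene. Without mutant replicate 1, 2 or 3 or control replicate 1 the adjusted p of Esd-ps was 0.079, 0.144, 0.121 and 0.106, and it was 0.0649 with no mean-variance trend. The adjusted p of Esd was 0.0846 without mutant replicate 1 and 0.0576 without mutant replicate 3.

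Bloc1s2-ps and Rps13-ps4 fell, while their parents, which were also lower in mutants, did not pass the test. Bloc1s2-ps, copied from the gene for a subunit of a complex that builds lysosome-related organelles, had 16.3, 9.16 and 14.1 RPKM in mutants and 24.7, 24.7 and 20.3 RPKM in controls. Its log2 fold change was -0.83 ± 0.19 (SE; limma adjusted p 0.0398), and that of Bloc1s2 was -0.43 ± 0.18 (SE; limma adjusted p 0.227). Rps13-ps4, a copy of a small-subunit ribosomal protein gene, had 6.16, 9.39 and 8.10 RPKM in mutants and 12.7, 13.3 and 11.9 RPKM in controls. Its log2 fold change was -0.67 ± 0.16 (SE; limma adjusted p 0.0474), and that of Rps13 was -0.56 ± 0.15 (SE; limma adjusted p 0.071). The call for Rps13-ps4 held under 4 of 17 alternatives, with an adjusted p of 0.166, 0.0687, 0.105, 0.153 and 0.0665 without mutant replicates 1, 2 and 3 and control replicates 1 and 2. That for Bloc1s2-ps was lost without mutant replicate 2 or 3 or control replicate 1 (0.149, 0.0897 and 0.126), with quantile normalization (0.0507) and with no mean-variance trend (0.0765).

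The other 3 called pseudogenes share little sequence with a parent of their name or have none in the table. Lamtor3-ps, named after a subunit of the lysosomal Ragulator scaffold, had 0.601, 0.654 and 0.314 RPKM in mutants and 2.38, 1.15 and 2.37 RPKM in controls, from 21, 21 and 10 reads in mutants and 81, 48 and 77 reads in controls. Its log2 fold change was -1.24 ± 0.26 (SE; limma adjusted p 0.0237), against -0.17 ± 0.15 (SE; limma adjusted p 0.54) for Lamtor3. None of its 31-base words was in Lamtor3, whereas 82.3% were in Gm3002, a predicted gene that also lies on chromosome 14. In all, 138 genes shared such words with Lamtor3-ps. RefSeq annotates Lamtor3-ps as protein coding and Gm3002 as a transcribed pseudogene. Gm3002 had 0.412, 0.931 and 0.604 RPKM in mutants and 2.43, 1.85 and 2.39 RPKM in controls and fell by 1.26 on the log2 scale (limma adjusted p 0.00816). The call for Lamtor3-ps was lost without mutant replicate 1, 2 or 3 or control replicate 1, at adjusted p of 0.0739, 0.101, 0.0827 and 0.0953.

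Tmem181b-ps, a duplicated copy from a family of membrane protein genes on chromosome 17, had 4.29, 2.47 and 4.38 RPKM in mutants and 9.07, 7.27 and 11.1 RPKM in controls. All mutants were below all controls, with a log2 fold change of -1.21 ± 0.22 (SE; limma adjusted p 0.0106), and without mutant replicate 2 the adjusted p was 0.0576. Its closest entry in the table, Tmem181a, holds 52.6% of its 31-base words and had a log2 fold change of -0.20 ± 0.21 (SE; limma adjusted p 0.616). Tmem181c-ps, which shares 77.8% of its 31-base words with Tmem181b-ps, was low throughout, at 0.457, 0.374 and 0.439 RPKM in mutants and 0.629, 0.472 and 0.897 RPKM in controls, and was not called (limma adjusted p 0.424).

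Olfr1372-ps1, a decayed olfactory receptor gene on chromosome 11, rose. It had 3.70, 3.56 and 4.34 RPKM in mutants and 2.19, 1.61 and 2.43 RPKM in controls, without overlap, and a log2 fold change of 0.77 ± 0.18 (SE; limma adjusted p 0.0412). The call was lost without any 1 of the mutant libraries 1, 2 and 3 or control libraries 1 and 2, at adjusted p of 0.125, 0.135, 0.112, 0.109 and 0.0902.

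**Figure D4:**
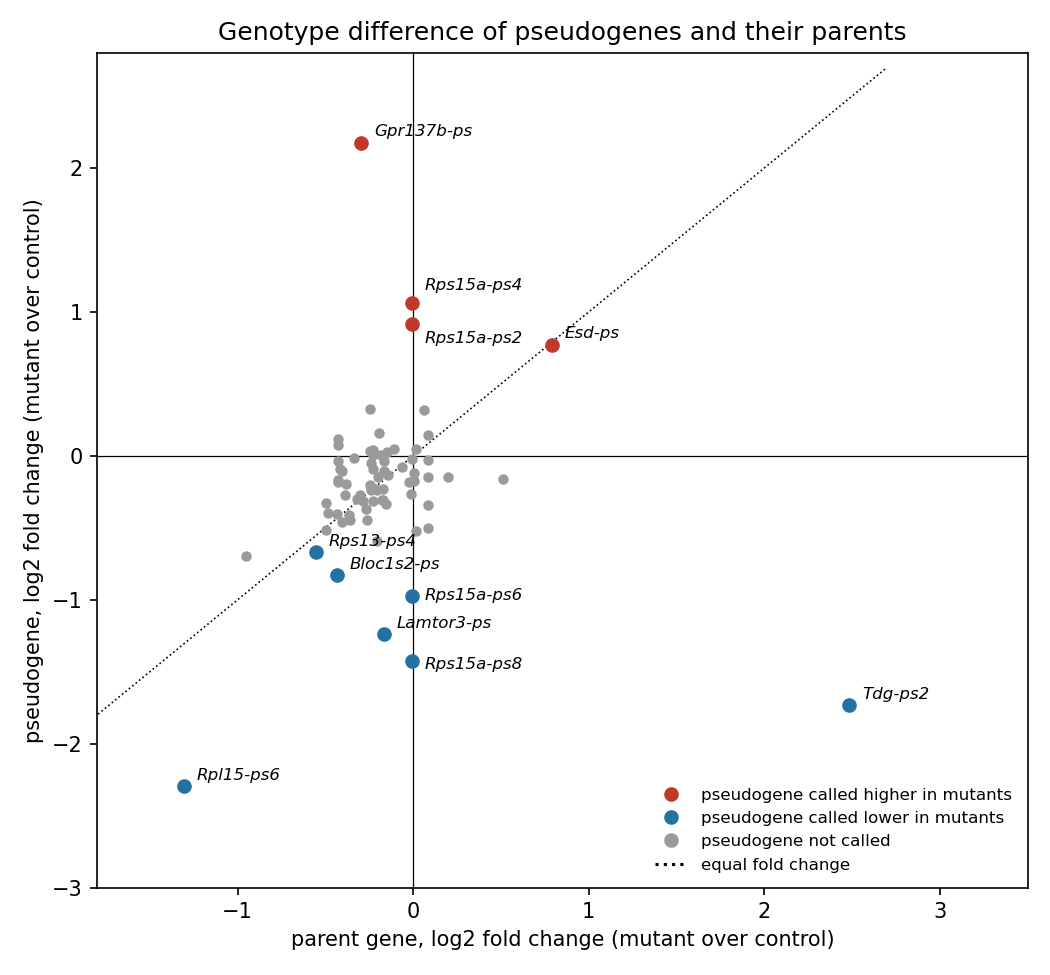
Log2 fold change (mutant over control) of each pseudogene (vertical) and its parent (horizontal) for the pairs with both tested; coloured points are called pseudogenes and the dotted line marks equal change. Esd-ps and Rps13-ps4 lie near the line, the called Rps15a copies spread above and below a parent near 0, and Tdg-ps2 lies opposite its parent, which rose by 2.48.

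Whether a pseudogene moved apart from its parent was measured as the log2 ratio of (RPKM + 0.5), pseudogene over parent, in each library. For Tdg-ps2 the ratio was -1.07, -0.82 and -0.91 in mutants and 3.30, 3.85 and 2.71 in controls, a difference of -4.21 between group means. For Gpr137b-ps it was 1.03, 0.18 and 0.48 in mutants and -1.98, -1.88 and -1.87 in controls, a difference of 2.47. In both pairs the ratio changed sign between genotypes in every library.

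Rps15a-ps8 over its parent had a ratio of -0.98, 0.47 and 0.29 in mutants and 1.40, 1.59 and 1.06 in controls, a difference of -1.42. Rps15a-ps4 had 2.07, 1.53 and 1.59 in mutants and 0.74, 0.86 and 0.39 in controls, a difference of 1.07. Lamtor3-ps had -4.70, -4.35 and -4.70 in mutants and -3.20, -4.24 and -3.09 in controls, a difference of -1.07, which became 0.02 when Gm3002 took the place of Lamtor3. These 5 were the pairs whose ratios did not overlap and differed by at least 1. In all, the ratio did not overlap in 17 of 76 pairs, 6 higher and 11 lower in mutants. No such share was taken over other pairs of genes, so the count is not read as a result about these pairs. For single entries, the RPKM of the groups did not overlap in 25.1% of all tested. Several of the 17 pairs also share a parent and are not independent. With 3 libraries a group an exact two-sided permutation test cannot give a p below 0.1, which is what each of the 17 had, or 0.447 after Benjamini-Hochberg adjustment over the 76 pairs, so no pair could pass 0.05.

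**Figure D5:**
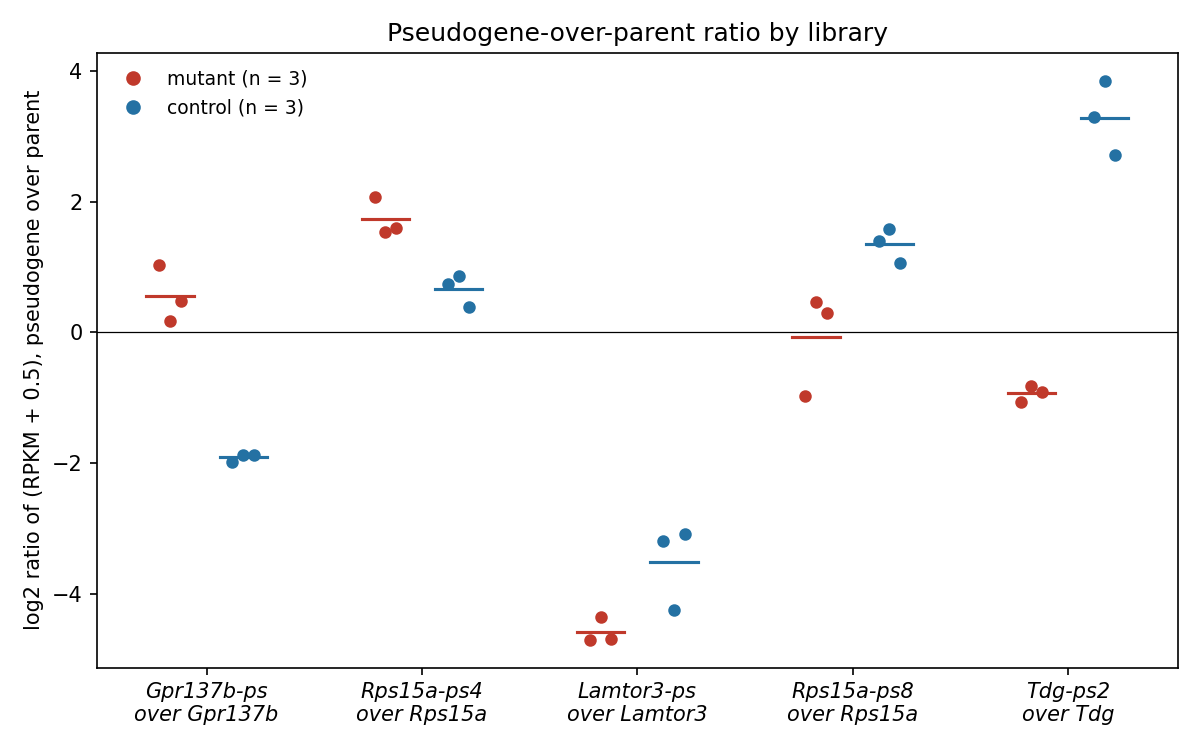
Log2 ratio of (RPKM + 0.5), pseudogene over parent, in each library for the 5 pairs that differed most, with mutants (red) left of controls (blue) and a bar at each group mean. The line at 0 marks equal levels: Gpr137b-ps is above its parent in mutants only, and Tdg-ps2 in controls only.

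The 76 members that were not called had log2 fold changes between -0.71 for Gpx2-ps1 and 0.50 for Ube2d-ps, and 70 of them lay within 0.5 of 0. Of these 76, 15 had an unadjusted limma p under 0.05, 14 of them lower in mutants. The share of all tested entries under that p was not taken, so the count is not read as a result about the members. All tested entries also leaned lower, with a median log2 fold change of -0.12. Of the 14, Alms1-ps2, Gpx2-ps1 and Sycp1-ps1 reached the threshold through their control levels only. Gpx2-ps1, copied from the gene for a glutathione peroxidase of the gut, had 0.292, 0.212 and 0.605 RPKM in mutants and 0.833, 0.924 and 0.943 RPKM in controls (limma adjusted p 0.125), and Gpx2 itself was listed at 0 in all 6 libraries. Ubb-ps, a polyubiquitin copy on chromosome 14, had 33.2, 34.1 and 38.1 RPKM in mutants and 49.0, 52.8 and 42.3 RPKM in controls, and its adjusted p was 0.104. Near the threshold, Alms1-ps2, named after a gene of the basal body at the foot of cilia, had 0.452, 0.308 and 0.217 RPKM in mutants and 0.638, 0.875 and 0.547 RPKM in controls (limma adjusted p 0.233). Polr2d-ps2, copied from the gene for an RNA polymerase II subunit, had 0.912, 0.248 and 0.416 RPKM in mutants and 0.390, 0.509 and 0.654 RPKM in controls (limma adjusted p 0.955). The Alms1-ps2 libraries did not overlap and the Polr2d-ps2 libraries did. Chromosome 14 held 4 members, of which Lamtor3-ps and Esd-ps were called and Ubb-ps and Mnd1-ps were not. Over all tested entries 3.13% were called. The share among tested entries of chromosome 14 was not taken, so this count is not read as a result about that chromosome.

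None of the members copied from Rpl31, Rpl17, Rpl34 or Rps12, all ribosomal protein genes, was called. The 4 Rpl31 members had log2 fold changes of -0.18 (Rpl31-ps11), -0.17 (Rpl31-ps12), 0.11 (Rpl31-ps9) and 0.08 (Rpl31-ps20) in mutants over controls, beside -0.43 for Rpl31 (limma adjusted p 0.115). Both Rpl17 copies were higher than their parent, with means of 145.4 RPKM for Rpl17-ps10, 31.3 RPKM for Rpl17-ps9 and 14.9 RPKM for Rpl17, and their log2 fold changes were -0.17 and -0.12. Rpl34-ps1 averaged 95.7 RPKM and Rpl34-ps2 2.98 RPKM, against 15.3 RPKM for Rpl34. Of 9 Rps12 copies in the table only Rps12-ps10 and Rps12-ps24 reached the threshold, and 5 of the other 7 had no read in any library, while Rps12 averaged 87.3 RPKM. Among the 82 tested genes for cytoplasmic ribosomal proteins themselves, 1 was called higher and 3 lower in mutants, with a median log2 fold change of -0.24.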

How the data were processed

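RNA from sorted cells was amplified with the NuGEN Ovation RNA-Seq System V2 and sequenced as paired reads of 100 bases, per the labels' protocols. The authors deposited 1 table of RPKM values per Entrez identifier; its column names mention subread, per the file headers, and the submitters' processing notes name mm10, FastQC and limma. The sources used here give no strand setting, annotation or treatment of reads that match several copies. Whole reads (tolerance 0.01 read) were recovered for all tested entries. They came from a known length, or from the smallest length that gave whole reads in every library. Errors are limma standard errors of the difference between groups. Their variance comes from the 3 pools a group and is drawn toward a trend over all tested entries.

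The members and lists were chosen with earlier results of these data known. Entries with a mean of at least 0.5 RPKM were tested on log2(RPKM + 0.5) with limma (version 3.58.1, R 4.3.3), a variance trend and Benjamini-Hochberg adjustment over 13463 entries. Fold changes are on that scale, which understates change in low entries. Values per library were given for called members, the 6 highest, those with a called parent, those whose ratio to the parent differed by at least 1 without overlap, and those at the threshold. Pairs were aligned with Biopython 1.88. Alternatives changed the pseudocount, filter, scaling, variance model, replicate block and libraries. The test was also run on simulated data with independent entries, a common spread, no library effects and no reads shared between copies. That run cannot show how the test behaves where these are present.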

Additional observations from a re-analysis of the deposited data

How the results depend on the processing

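Without a filter on low values 2 members were called, 1 higher and 1 lower in mutants, and 143 entries in all, 65 higher and 78 lower. Members called lower came to 4 with quantile normalization and 4 when depth was counted without mitochondrial ribosomal RNA, which also gave 268 higher and 149 lower entries over the table. Without a mean-variance trend 8 members were called, 2 of them higher. Voom on recovered reads called 690 entries, 295 higher and 395 lower. Leaving out 1 library gave 4 to 21 called members, 1 to 5 higher and 3 to 16 lower, with 148 to 1083 entries over the table, 66 to 270 higher and 82 to 813 lower, and 2 to 14 parents; the highest totals came without control replicate 3. The cause was not tested. Gpr137b-ps, Tdg-ps2, Tdg and Rpl15 were called under all 17 alternatives, and no called member changed direction.

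Signs turned only among values that were not called, and for 1 ratio. Rpl36-ps12 was at 0.002 with quantile normalization and ran from -0.405 to 0.004 over the libraries left out. Rpl17-ps10 was at 0.035 with quantile normalization. Rps15a-ps5 was at 0.083 with median-of-ratios scaling, 0.171 with quantile normalization and 0.101 without mitochondrial ribosomal RNA, and ran from -0.205 to 0.168 over the libraries left out. The ratio of Lamtor3-ps was at 0.023 with Gm3002 in place of Lamtor3.

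With the replicate number as a block, 11 members were called, 4 higher and 7 lower, and 393 entries in all; Esd-ps (limma adjusted p 0.0589) and Rps13-ps4 (0.0507) lost their calls. The labels do not say that a number marks a shared source, and correlations of same-numbered libraries' deviations ran from 0.0526 to 0.157, so the numbers were not taken as pairs, although all 6 libraries correlated best with their own number, a hint from the data.

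The depth of 10 to 81 reads a library limits Lamtor3-ps, and reads shared between near-identical copies limit every level of a single copy.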
